A study of Homo sapiens with 12 samples.

Results

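The genes described here separate spheroids of α2 integrin positive prostate cancer cells from spheroids of both α2 negative lines they were compared with. They were chosen by 1 rule, that the value of every α2 positive sample lay outside the range of all 8 α2 negative samples, and the rule was met by 1109 of the 26485 genes of the count table. Of these, 1054 had enough counts for a test among 14732 genes tested, and 55 did not. The spheroids came from 3 derivatives of the human prostate cancer cell line DU145, each with 4 biological replicates, and their RNA had been sequenced. DU145KO cells carried a Crispr/Cas9 knock-out of ITGA2, the gene of α2 integrin, and had been transfected with nothing else. DU145KO+α2 cells were DU145KO cells stably transfected with an α2 integrin cDNA in the pAWneo2 vector. DU145KO+vector cells were DU145KO cells stably transfected with the empty pAWneo2 vector. The knock-out was thus shared by every sample, and the 8 α2 negative samples came from 2 lines. The knock-out cells had been selected by GFP and checked for α2 at the surface as a population, and geneticin was used on both transfected lines only. Each spheroid held 8000 cells, and RNA was taken after 72 hours without serum.

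Integrins are heterodimers that connect the extracellular matrix to the cytoskeleton and to signalling proteins. α2 pairs only with β1, and α2β1 is a main receptor of epithelial cells for fibrillar collagen. In signalling from adhesion sites, focal adhesion kinase, Src family kinases and SYK are among the first enzymes, and MAP kinases act further downstream.

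Total counts were between 13948734 and 19988111 per sample, and 3 counts, taken as the detection floor, corresponded to 0.1499 to 0.215 CPM (counts scaled to library size by the TMM method). All 9 epithelial markers examined had a mean above 1 CPM, with a summed level of 1584 to 2022 CPM in DU145KO+α2, 2157 to 2715 CPM in DU145KO and 1943 to 2252 CPM in DU145KO+vector. KLK2 and KLK3, which mark luminal prostate cells, were at 0 counts in every sample. The summed level of 12 endothelial markers, which include CDH5, was 38.5 to 43.8 CPM in DU145KO+α2 and 40.4 to 53.0 CPM in the negative samples. Within that sum, EGFL7 was lower in DU145KO+α2 (26.4 to 31.4 CPM, against 36.0 to 49.5 CPM). CDH5 was higher (7.8 to 12.2 CPM, against 0 to 1.39 CPM). The summed levels of leukocyte and of fibroblast markers overlapped between the lines as well. The neuroendocrine list stood higher in DU145KO+α2 (63.9 to 95.4 CPM, against 37.8 to 54.3 CPM), with 2 of its 9 genes above a mean of 1 CPM. Its part in the results below was not tested.

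ITGA2 lies on chromosome 5 (52989352 to 53094779 in GRCh38.p14, the build of all positions given) and was counted at 301, 328, 332 and 259 CPM in DU145KO+α2, at 21.2, 20.2, 25.8 and 15.7 CPM in DU145KO and at 18.8, 18.2, 20.2 and 13 CPM in DU145KO+vector. Every DU145KO+α2 sample was above every negative sample (log2FC 4.01, SE 0.05, adjusted p = 1.61e-23, edgeR's quasi-likelihood test, where log2FC is the log2 fold change of DU145KO+α2 against the mean of both negative lines and SE its standard error). Transcripts of ITGA2 were thus counted in the knock-out lines too, and the transcripts of the edited gene and of the cDNA are summed in DU145KO+α2. The partner chain ITGB1 had a log2FC of 0.40 (SE 0.05, adjusted p = 7.31e-06), and its samples overlapped. On a scale per length, the median of ITGA2 was 40.0 RPKM in DU145KO+α2 and 2.35 RPKM in DU145KO+vector, while ITGB1 stood at 1091 and 717 RPKM. Among all 20 integrin subunits tested, only ITGB1 and ITGA3 (135 RPKM in DU145KO+α2) had a higher median than ITGA2 in DU145KO+α2.

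DU145KO+α2 lay above all negative samples in 501 of the genes tested (3.4%) and below them in 553 (3.75%). By comparison, 330 genes (2.24%) separated DU145KO and 522 genes (3.54%) separated DU145KO+vector from the other 8 samples. Differential expression (DE) meant a fold change above 2 together with an adjusted p below 0.05 in a model of all 12 samples with the replicate number as a block, and 327 genes (2.22%) met it, 134 of them higher (0.91%) and 193 lower (1.31%). Both conditions, DE and no overlap, were met by 194 genes (1.32% of those tested), 83 higher (0.563%) and 111 lower (0.753%). Genes without overlap had to differ between the groups, so these counts describe the selection and test nothing. The adjusted p of a single gene given further on sets its difference against the spread between replicates of a line. Most genes it is given for were picked from these same samples. All 4 DU145KO+α2 samples came from 1 transfected line, so effects of α2 and other differences of that line cannot be told apart. The other 860 genes without overlap were not DE, and 22 of them had an adjusted p of 0.05 or more. In bulk RNA, fewer cells that express a gene and less of its RNA per cell cannot be told apart.

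**Figure D1:**
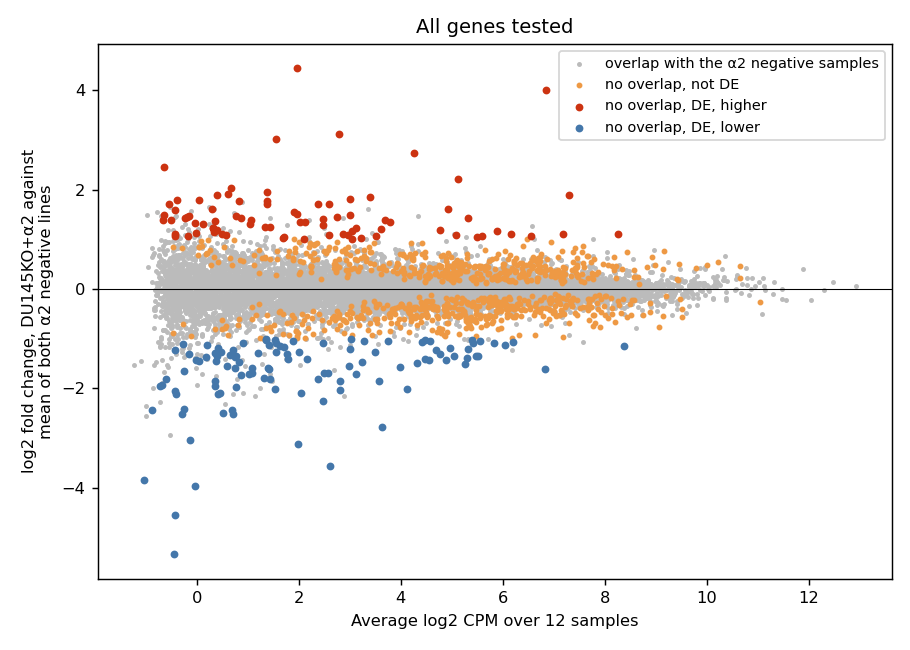
Each point is 1 of the 14732 genes tested, with its average log2 CPM over the 12 samples on the x axis and its log2 fold change, DU145KO+α2 against the mean of both α2 negative lines, on the y axis. Red (83 genes) and blue (111 genes) points are DE without overlap, orange points lie outside the range of the negative samples without being DE, and CDH5 and ITGA2 are the highest red points, at 4.44 and 4.01.

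The edge of the selection was narrow. CIB4 was just inside, with a lowest DU145KO+α2 value of 4.85 CPM against a highest negative value of 4.83 CPM, and GPCPD1 was just outside, with 231 against 232 CPM. Among the lower genes SAMD9 was just inside, with a highest DU145KO+α2 value of 4.10 CPM against a lowest negative value of 4.13 CPM. NRP2 was just outside, at 0.827 CPM on both sides of the gap.

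Among the gene lists examined, interferon stimulated genes had the highest share of members below all negative samples. Interferons bind receptors that activate the kinases JAK1 and TYK2, and factors such as IRF9 then bind a promoter element called ISRE in genes whose products restrict viruses. Of 40 interferon stimulated genes listed, 37 were tested, and 23 of them (62.2%, against 3.75% of all genes tested) lay below every negative sample in all DU145KO+α2 samples, while none lay above. By the adjusted p, 34 fell and 1 rose (14.4% and 13.1% of all genes tested did so). The median log2 fold change of the 37 genes was −0.98, and over all genes tested it was −0.00356. The list was chosen with results of these data known, and no test was made over it. Between the negative lines the median of the same genes was −0.14 for DU145KO+vector against DU145KO, where 1 gene rose and 9 fell (5.59% and 7.85% of all genes tested did so). The only gene of the list that rose in DU145KO+α2 was IFITM2, named after its value was seen, with a log2FC of 1.12 (SE 0.10, adjusted p = 3.34e-06) and overlapping samples. STAT2 and ISG20 did not pass the test.

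The promoters of 4 of the genes, in which the ISRE letters occur more than once, are shown to give the element itself, in capitals at each match. The letters searched were TTTC, 2 further bases of any kind and TTTC, on either strand (GAAA, 2 bases and GAAA on the other), within 250 bases before a transcript start of the gene (RefSeq sequences of GRCh38.p14, 1 start per gene). This start can lie inside the full span of the gene, as it does for IFI27. The letters were found in 2.33% of the 11563 promoters of genes tested, in 13% of the 77 promoters of lower DE genes without overlap, and in 7 of the 11 promoters (63.6%) of the interferon stimulated genes among these. Among all interferon stimulated genes tested, with or without overlap, they were found in 16 of 29 promoters (55.2%). A match describes the letters and does not show a bound site.
IFIT1 (chr10:89392373-89392622, plus strand): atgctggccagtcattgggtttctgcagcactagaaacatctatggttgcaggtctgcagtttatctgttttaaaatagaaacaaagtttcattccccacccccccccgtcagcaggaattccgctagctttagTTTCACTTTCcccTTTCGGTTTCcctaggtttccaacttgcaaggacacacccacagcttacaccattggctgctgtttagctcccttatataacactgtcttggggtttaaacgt
IFIT3 (chr10:89327747-89327996, plus strand): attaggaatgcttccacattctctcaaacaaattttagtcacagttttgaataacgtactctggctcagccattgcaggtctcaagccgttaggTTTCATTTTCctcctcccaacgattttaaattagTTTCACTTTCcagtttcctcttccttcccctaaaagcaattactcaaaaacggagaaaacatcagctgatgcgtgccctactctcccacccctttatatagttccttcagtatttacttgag
IFI27 (chr14:94110486-94110735, plus strand): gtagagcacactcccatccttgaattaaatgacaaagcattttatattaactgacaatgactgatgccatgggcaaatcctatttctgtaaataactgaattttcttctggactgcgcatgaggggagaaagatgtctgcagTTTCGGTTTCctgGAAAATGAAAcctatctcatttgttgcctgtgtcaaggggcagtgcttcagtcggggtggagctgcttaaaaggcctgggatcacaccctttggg
IFI44L (chr1:78620198-78620447, plus strand): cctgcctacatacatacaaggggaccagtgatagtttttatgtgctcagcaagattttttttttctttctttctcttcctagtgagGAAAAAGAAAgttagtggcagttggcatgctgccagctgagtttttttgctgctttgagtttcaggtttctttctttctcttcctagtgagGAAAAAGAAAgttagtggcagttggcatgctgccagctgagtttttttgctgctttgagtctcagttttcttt

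IFIT1 (chromosome 10, 89392623 to 89406487), whose product binds viral RNA that lacks a host cap, was counted at 23.6, 18.1, 15.7 and 17 CPM in DU145KO+α2, at 66, 30.3, 44.1 and 47.1 CPM in DU145KO and at 71.3, 45.8, 45 and 48.7 CPM in DU145KO+vector. The highest DU145KO+α2 sample was below the lowest sample of either negative line (log2FC −1.40, SE 0.09, adjusted p = 6.75e-08, edgeR's quasi-likelihood test), and both negative lines overlapped. The neighbouring IFIT3, of the same family, was counted at 25.3, 15, 14 and 13.9 CPM in DU145KO+α2, at 76.6, 32.4, 43.6 and 40.5 CPM in DU145KO and at 70.05, 47.2, 41 and 40.3 CPM in DU145KO+vector. It was below both lines in the same way (log2FC −1.51, SE 0.08, adjusted p = 6.62e-10), with 1.86% of its exon bases under exons of LIPA on the opposite strand. IFIT2, the remaining member of the family that was DE, covered 12.8 to 20.6 CPM in DU145KO+α2 and 31.1 to 57.2 CPM in the negative samples (log2FC −1.35, SE 0.09, adjusted p = 1.43e-08).

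IFI44L (chromosome 1, 78620448 to 78646145), an interferon inducible gene of unresolved function, was counted at 0.559, 0.25, 0.354 and 0.0637 CPM in DU145KO+α2, at 2.71, 0.733, 2.4 and 2.17 CPM in DU145KO and at 2.05, 1.29, 1.61 and 1.58 CPM in DU145KO+vector. It had a log2FC of −2.50 (SE 0.32, adjusted p = 4.29e-06) at low levels in all lines. Its neighbour IFI44 covered 3.6 to 4.66 CPM in DU145KO+α2 and 5.93 to 17.4 CPM in the negative samples (log2FC −1.48, SE 0.15, adjusted p = 1.9e-06). IFI27, which encodes a small mitochondrial membrane protein, covered 0.65 to 0.891 CPM in DU145KO+α2 and 1.04 to 3.51 CPM in the negative samples. It was the interferon gene with the smallest change among those that were DE without overlap (log2FC −1.23, adjusted p = 0.000925), and without replicate 1 of DU145KO+α2 its log2 fold change was −0.92, under the threshold.

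The oligoadenylate synthetases make the messenger that activates RNase L. OAS1 (chromosome 12, 112906962 to 112933219) was counted at 5.59, 3.35, 4.14 and 3.31 CPM in DU145KO+α2, at 34.2, 9.9, 11.9 and 19.4 CPM in DU145KO and at 14.4, 10.1, 11.2 and 14.1 CPM in DU145KO+vector. All DU145KO+α2 samples were lower than the negative ones, and replicate 1 of DU145KO stood above its line (log2FC −1.86, SE 0.22, adjusted p = 0.000278). OAS2 covered 2.16 to 3.73 CPM in DU145KO+α2 and 5.12 to 26.5 CPM in the negative samples (log2FC −1.54), and OASL, a relative without synthetase activity, covered 18.4 to 30.4 CPM in DU145KO+α2 and 34.2 to 101 CPM in the negative samples (log2FC −1.36).

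MX1 (chromosome 21, 41420558 to 41459214), a GTPase that traps viral nucleocapsids, was counted at 13.4, 9.5, 9.27 and 8.98 CPM in DU145KO+α2, at 50.8, 19.6, 29.4 and 30.3 CPM in DU145KO and at 28.2, 23.4, 21.1 and 22.2 CPM in DU145KO+vector. Replicate 1 was the highest DU145KO+α2 sample and was still below all negative samples, which overlapped between the lines (log2FC −1.42, SE 0.14, adjusted p = 2.16e-05). DDX60 and DHX58 encode helicases that act with the RNA sensor RIG-I. DDX60 covered 12.1 to 16.6 CPM in DU145KO+α2 and 27.2 to 52.5 CPM in the negative samples (log2FC −1.43, SE 0.10, adjusted p = 5.19e-08), and DHX58, which was not on the list, covered 0.532 to 1.59 CPM in DU145KO+α2 and 3.31 to 11.4 CPM in the negative samples (log2FC −2.09, SE 0.20, adjusted p = 2.82e-07).

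XAF1, an interferon induced promoter of apoptosis, covered 0.40 to 0.70 CPM in DU145KO+α2 and 1.1 to 3.24 CPM in the negative samples (log2FC −1.96, SE 0.27, adjusted p = 9.11e-06). UBA7, the activating enzyme of ISG15 conjugation and also not on the list, covered 0.65 to 1.15 CPM in DU145KO+α2 and 2.36 to 4.96 CPM in the negative samples (log2FC −1.82, SE 0.19, adjusted p = 2.98e-07). SAMD9 (chromosome 7, 93099518 to 93117979), an antiviral protein, was counted at 4.1, 3.2, 2.24 and 2.74 CPM in DU145KO+α2, at 23.2, 13.3, 13.8 and 15.5 CPM in DU145KO and at 9.48, 6.39, 5.23 and 4.13 CPM in DU145KO+vector. All groups of SAMD9 were ordered, with DU145KO highest and DU145KO+α2 lowest, and the negative lines differed from each other by −1.39 on the log2 scale (adjusted p = 1.24e-07). CMPK2, a mitochondrial nucleotide kinase, was at or below the floor in every DU145KO+α2 sample and was at least 3.12-fold lower than the mean of the negative samples, with 3 counts per library as the floor.

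All 14 interferon stimulated genes that were DE without overlap were also lower and DE against DU145KO+vector and against DU145KO taken alone. Of all genes tested, 1% and 1.94% were. The 14 genes were picked from the same samples, and both comparisons share the DU145KO+α2 samples, so this is a description. Between the negative lines, 2 of the 14 had an adjusted p below 0.05, where 13.4% of all genes tested did. BST2, IFI6 and SAMD9L, named after their values were seen, were DE with overlapping samples (log2FC −2.09, −1.23 and −1.54). The 23 genes without overlap lay on 12 chromosomes.

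Replicate 1 stood high for these genes in every line. It was the highest sample of DU145KO for 14 of the 14 genes, of DU145KO+vector for 13 and of DU145KO+α2 for 11. The median over the 37 genes, relative to the mean of the negative samples on the log2 scale, was −0.67, −0.89, −0.99 and −0.85 in replicates 1 to 4 of DU145KO+α2. It was 0.53, −0.34, −0.06 and 0.11 in DU145KO and 0.17, −0.06, −0.15 and −0.12 in DU145KO+vector. In this median every DU145KO+α2 sample lay below every negative sample. The 37 genes include the 23 without overlap, so the median describes the same selection and adds no test. Leaving out each sample in turn gave between 13 and 17 DE genes without overlap in place of 14.

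**Figure D2:**
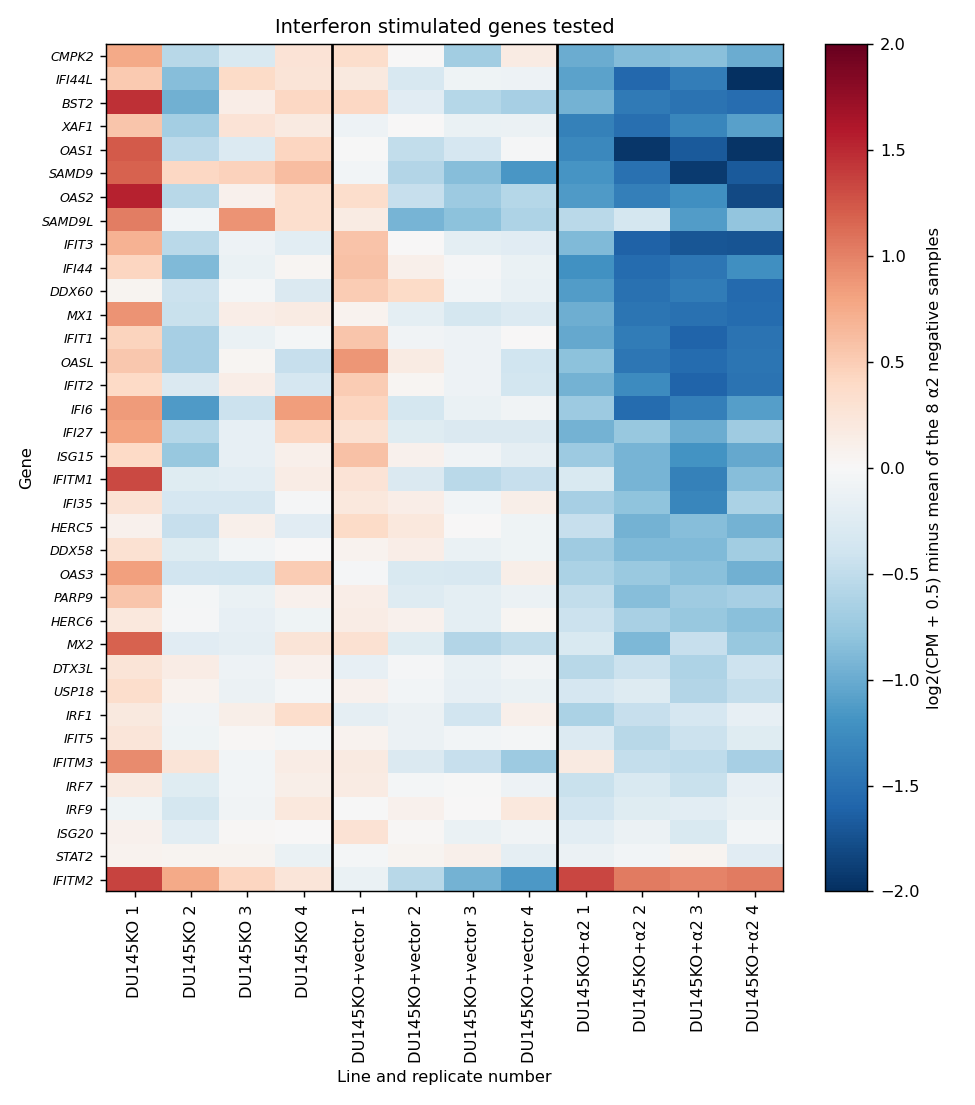
Rows are 36 of the 37 interferon stimulated genes tested and columns the 12 samples by line and replicate, and the colour gives log2(CPM + 0.5) minus the mean of the 8 α2 negative samples. Blue fills most of the 4 DU145KO+α2 columns (medians over the 37 genes −0.67 to −0.99), IFITM2 at the bottom is red in them, and replicate 1 of DU145KO is red for most genes (median 0.53).

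The genes upstream of this response were measured with lists drawn up after the values were seen. Of 21 interferon genes, 16 had no count in any sample and only IFNE was tested (log2FC 0.21, adjusted p = 0.464), while each of the others had at most 3 counts in any sample. Of 9 receptor and kinase genes, 4 fell, where 14.4% of all genes tested did, and none was DE. JAK2 had the largest change of the 9 and lay below all negative samples (log2FC −0.37, SE 0.08, adjusted p = 0.00229). IFNAR1 and IFNAR2, the type I receptor chains, had log2FC values of −0.13 (adjusted p = 0.0406) and −0.01 (adjusted p = 0.901).

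Among integrins and the proteins of adhesion sites, ITGA2 and SYK met both conditions. Of 20 integrin subunits tested, 5 rose and 5 fell by the adjusted p (13.1% and 14.4% of all genes tested did so). DE was met by 2 of the 20, both higher (0.91% of all genes tested were), and ITGA2 was the only one of these without overlap. ITGA2B and ITGB8 lay above all negative samples with log2FC values of 0.42 and 0.60. ITGAV, ITGB2 and ITGB4 lay below them with −0.30, −0.93 and −0.91, and none of these 5 genes, named after their values were seen, reached a fold change of 2. With ITGA2 these made 6 integrins without overlap (30%, against 7.15% of all genes tested). Of 32 genes of focal adhesions and of Src, FAK and SYK kinases, 5 rose, 4 fell and only SYK was DE without overlap.

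SYK (chromosome 9, 90801600 to 90898549), a tyrosine kinase that signals from immune receptors and integrins, was counted at 1.68, 1.8, 1.06 and 1.66 CPM in DU145KO+α2, at 7.41, 8.61, 7.93 and 6.91 CPM in DU145KO and at 7.81, 7.54, 6.79 and 5.92 CPM in DU145KO+vector. The DU145KO+α2 samples were lower and the negative lines overlapped (log2FC −2.25, SE 0.14, adjusted p = 3.53e-10, edgeR's quasi-likelihood test). SYK lies on chromosome 9, where many genes were lower. Of 25 genes of the p38 pathway 5 rose and 3 fell, of 26 ERK feedback and immediate early genes 6 rose and 2 fell, and no gene of either list was DE. Over all genes tested, 13.1% rose and 14.4% fell.

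Junction genes moved in both directions. CDH5 (chromosome 16, 66366691 to 66404784), the cadherin of endothelial junctions, was counted at 10.6, 9.0, 12.2 and 7.83 CPM in DU145KO+α2, at 1.39, 1.16, 1.29 and 1.23 CPM in DU145KO and at 0.166, 0, 0.173 and 0.276 CPM in DU145KO+vector. It had the largest log2 fold change of the higher genes (4.44, SE 0.18, adjusted p = 2.28e-13). Its negative lines did not overlap, and the values in DU145KO+vector rest on a few counts per sample.

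JAM3 (chromosome 11, 134069072 to 134152001), a junctional adhesion molecule, was counted at 16.1, 20.4, 17.7 and 20.2 CPM in DU145KO+α2, at 12, 10.2, 9.28 and 6.15 CPM in DU145KO and at 4.05, 4.09, 1.96 and 1.72 CPM in DU145KO+vector. It was highest in DU145KO+α2 and lowest in DU145KO+vector (log2FC 1.84, SE 0.18, adjusted p = 5.43e-05), and exons of NCAPD3 on the opposite strand cover 35.6% of its exon bases. Because it is not given in the sources used here whether counting used the strand, reads of such pairs may be shared. PKP1 (chromosome 1, 201283506 to 201332989), a desmosomal plaque protein, was counted at 0.186, 0.50, 0.354 and 0.382 CPM in DU145KO+α2, at 2.12, 3.05, 2.7 and 2.05 CPM in DU145KO and at 2.27, 1.94, 1.27 and 1.58 CPM in DU145KO+vector. It was lower in DU145KO+α2 than in either negative line, which overlapped (log2FC −2.52, SE 0.28, adjusted p = 5.84e-07). TJP3, a tight junction scaffold, covered 8.57 to 15.7 CPM in DU145KO+α2 and 20.6 to 31.6 CPM in the negative samples (log2FC −1.07, SE 0.10, adjusted p = 1.46e-06). Of the 28 genes of desmosomes and tight junctions tested, 5 rose and 13 fell by the adjusted p, against 13.1% and 14.4% of all genes.

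**Figure D3:**
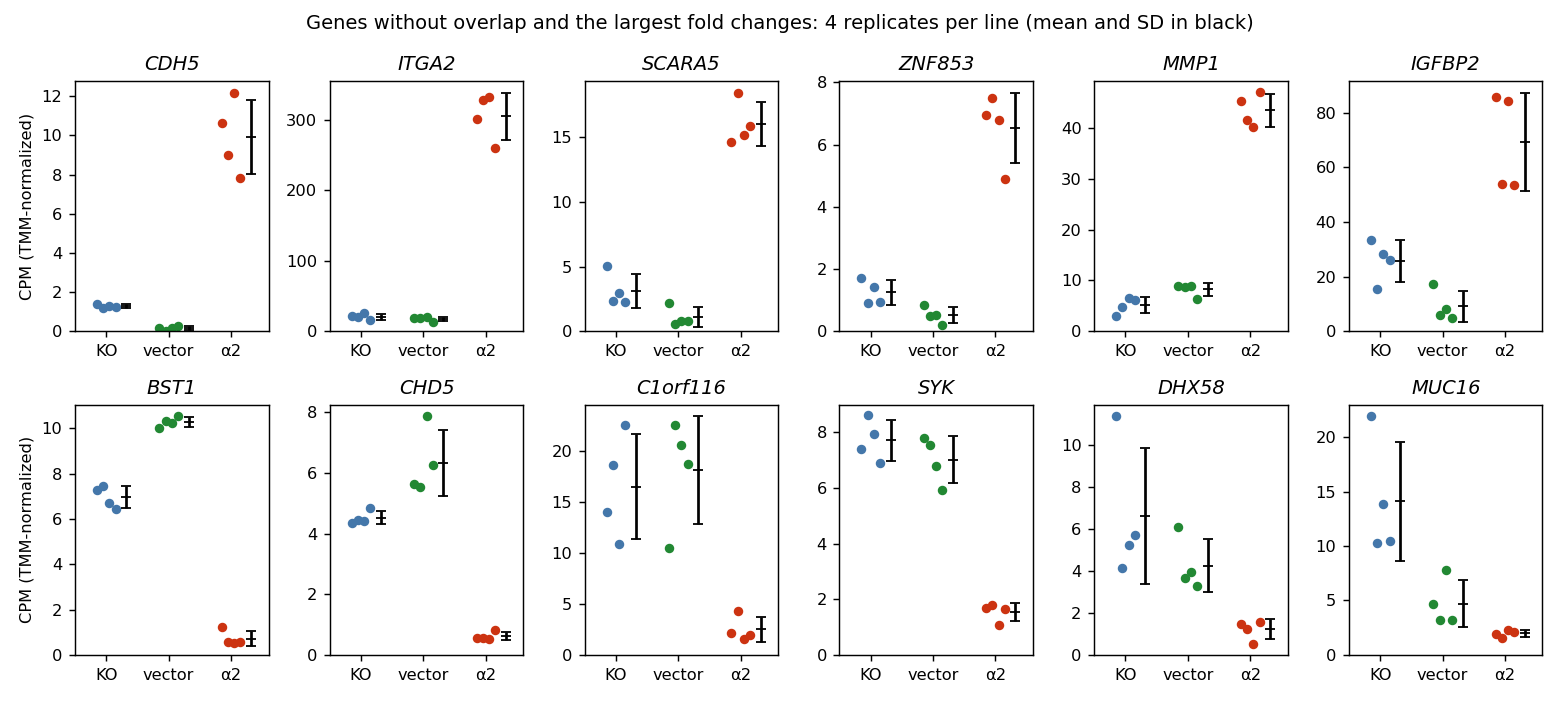
CPM values on linear axes from 0 of the 4 replicates of each line for the 6 DE genes without overlap that changed most in each direction, taken from those whose average log2 CPM reached 1, with the mean and SD in black. DU145KO+α2 is separate from both negative lines in every panel, and the negative lines are themselves apart for some genes, such as BST1, at 6.97 ± 0.477 CPM in DU145KO and 10.3 ± 0.211 CPM in DU145KO+vector (SD, n = 4).

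Genes of the matrix and of its turnover also split. MMP1 (chromosome 11, 102789919 to 102798160), a collagenase that cuts fibrillar collagen, was counted at 45.3, 41.5, 40.1 and 47 CPM in DU145KO+α2, at 3.04, 4.77, 6.52 and 6.21 CPM in DU145KO and at 8.98, 8.62, 8.97 and 6.41 CPM in DU145KO+vector. The lowest DU145KO+α2 sample was far above the highest negative one, and the negative lines overlapped (log2FC 2.73, SE 0.14, adjusted p = 2.49e-07), with 8.14% of its exon bases under WTAPP1 on the opposite strand. CEMIP (chromosome 15, 80779370 to 80951771), which degrades hyaluronan, was counted at 336, 229, 323 and 269 CPM in DU145KO+α2, at 200.5, 138, 83.4 and 101 CPM in DU145KO and at 95.2, 43.4, 32.2 and 39.1 CPM in DU145KO+vector. It was among the most abundant of the higher genes, with DU145KO+vector at the lower end and replicate 1 of DU145KO as the highest negative sample (log2FC 1.90, SE 0.22, adjusted p = 0.00096).

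COL21A1 (chromosome 6, 56056590 to 56394128), a fibril associated collagen, was counted at 41.4, 34.2, 37.1 and 58.1 CPM in DU145KO+α2, at 20.2, 15.8, 10.2 and 28.5 CPM in DU145KO and at 24.6, 12.1, 14.9 and 28.2 CPM in DU145KO+vector. Replicate 4 was the highest sample of each line, and the negative lines overlapped (log2FC 1.18, SE 0.12, adjusted p = 5.65e-05). SVEP1, a large matrix protein that binds α9β1 integrin, covered 1.86 to 2.55 CPM in DU145KO+α2 and 0.344 to 0.855 CPM in the negative samples (log2FC 1.88, SE 0.20, adjusted p = 4.49e-07). Of 46 laminins and matrix glycoproteins, 12 rose and 14 fell (13.1% and 14.4% of all genes tested did so), and SVEP1 rose while VWA2 and SRPX2 fell among the DE genes without overlap.

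VWA2, which encodes a basement membrane protein, covered 2.07 to 2.92 CPM in DU145KO+α2 and 7.65 to 10.7 CPM in the negative samples (log2FC −1.85, SE 0.12, adjusted p = 3.53e-10). SRPX2, a secreted ligand of the urokinase receptor, covered 0.236 to 0.559 CPM in DU145KO+α2 and 0.62 to 1.39 CPM in the negative samples (log2FC −1.44, adjusted p = 0.000541), and SYTL4 on the opposite strand covers 52.0% of its exon bases. SDC2, a cell surface heparan sulfate proteoglycan, was at 0.124, 0, 0 and 0 CPM in DU145KO+α2, at or below the floor, and was at least 5.26-fold lower than the mean of the negative samples. ST14 (chromosome 11, 130159782 to 130210362), the membrane protease matriptase, was counted at 6.96, 5.25, 3.43 and 4.58 CPM in DU145KO+α2, at 40.4, 29.6, 27.2 and 41.6 CPM in DU145KO and at 13.9, 10.6, 13.3 and 9.64 CPM in DU145KO+vector. It was lowest in DU145KO+α2 and highest in DU145KO, with no overlap between any of the 3 lines (log2FC −2.01, SE 0.16, adjusted p = 3.32e-06).

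Of 37 growth factors and receptors tested, 12 rose and 8 fell by the adjusted p, where 13.1% and 14.4% of all genes tested did so, and 4 were DE without overlap. KIT (chromosome 4, 54657957 to 54740715), the receptor tyrosine kinase for stem cell factor, was counted at 59.8, 49.6, 55.5 and 45.1 CPM in DU145KO+α2, at 32.5, 25.5, 16.7 and 31.6 CPM in DU145KO and at 17, 11.1, 6.62 and 12.8 CPM in DU145KO+vector. It was highest in DU145KO+α2, and DU145KO+vector differed from DU145KO by −1.17 on the log2 scale (log2FC 1.60, SE 0.18, adjusted p = 0.000646). MET (chromosome 7, 116672196 to 116798377), the receptor for hepatocyte growth factor, was counted at 36.7, 45.2, 40.3 and 46.4 CPM in DU145KO+α2, at 70.8, 89, 115 and 85.8 CPM in DU145KO and at 59.8, 91.3, 99.7 and 105 CPM in DU145KO+vector. It was lower in DU145KO+α2, and the negative lines overlapped (log2FC −1.07, SE 0.10, adjusted p = 2.47e-05).

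IGFBP2 and IGFBP6, which bind insulin-like growth factors, changed in opposite directions. IGFBP2 was counted at 85.9, 54.1, 84.2 and 53.7 CPM in DU145KO+α2, at 33.4, 15.3, 28.2 and 26.2 CPM in DU145KO and at 17.4, 6.1, 8.11 and 4.82 CPM in DU145KO+vector, highest in DU145KO+α2, and replicate 1 of DU145KO+vector was above replicate 2 of DU145KO (log2FC 2.21, SE 0.18, adjusted p = 0.000141). IGFBP6 covered 19.9 to 32 CPM in DU145KO+α2 and 36.3 to 77.5 CPM in the negative samples, lowest in DU145KO+α2 and highest in DU145KO+vector (log2FC −1.05, SE 0.12, adjusted p = 0.000225). BMP4, a ligand of the TGF-beta superfamily, covered 1.49 to 2.3 CPM in DU145KO+α2 and 2.76 to 8.34 CPM in the negative samples (log2FC −1.28, SE 0.16, adjusted p = 3.73e-06), and it was the only 1 of 43 genes of TGF-beta, BMP and WNT signalling that was DE without overlap. By the adjusted p, 15 of the 43 rose and 7 fell (13.1% and 14.4% of all genes tested did so), and 7 lay above all negative samples (16.3%, against 3.4%). PLXNA2, a semaphorin receptor, covered 0.994 to 2.05 CPM in DU145KO+α2 and 2.44 to 4.4 CPM in the negative samples (log2FC −1.03, adjusted p = 0.000499).

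SCARA5 (chromosome 8, 27869883 to 27992673), a scavenger receptor that takes up ferritin, was counted at 14.7, 18.4, 15.2 and 15.9 CPM in DU145KO+α2, at 5.03, 2.32, 2.95 and 2.22 CPM in DU145KO and at 2.22, 0.575, 0.805 and 0.827 CPM in DU145KO+vector. It was highest in DU145KO+α2, and replicate 1 was the highest sample of both negative lines (log2FC 3.12, SE 0.22, adjusted p = 3.95e-06). BST1 (chromosome 4, 15703065 to 15774173), a cell surface enzyme of NAD metabolism related to CD38, was counted at 1.24, 0.55, 0.532 and 0.573 CPM in DU145KO+α2, at 7.28, 7.45, 6.7 and 6.44 CPM in DU145KO and at 10.03, 10.3, 10.2 and 10.5 CPM in DU145KO+vector. DU145KO+vector was highest and DU145KO+α2 lowest, without overlap between any of the lines (log2FC −3.56, SE 0.18, adjusted p = 1.17e-11). MUC16, a large membrane mucin, covered 1.6 to 2.24 CPM in DU145KO+α2 and 3.17 to 22 CPM in the negative samples (log2FC −2.03, SE 0.21, adjusted p = 1.08e-05), and C1orf116 covered 1.54 to 4.3 CPM in DU145KO+α2 and 10.5 to 22.5 CPM in the negative samples (log2FC −2.77, SE 0.29, adjusted p = 0.000248).

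Regulators of transcription and chromatin included genes that are low in every line. CHD5 (chromosome 1, 6101787 to 6180321), a chromatin remodeller, was counted at 0.559, 0.55, 0.532 and 0.828 CPM in DU145KO+α2, at 4.37, 4.46, 4.43 and 4.86 CPM in DU145KO and at 5.65, 5.53, 7.88 and 6.27 CPM in DU145KO+vector. It was lowest in DU145KO+α2 and the negative lines differed by 0.48 on the log2 scale (log2FC −3.11, SE 0.19, adjusted p = 1.46e-10). Of the 10 CHD genes tested it was the only one that was DE. IRX3 and SOX5, transcription factors of development, covered 3.35 to 5.91 CPM in DU145KO+α2 and 0.431 to 3.18 CPM in the negative samples (log2FC 1.95) and 1.59 to 2.17 CPM in DU145KO+α2 and 0.403 to 1.52 CPM in the negative samples (log2FC 1.19). Of 53 homeobox and SOX genes 17 rose and 3 fell by the adjusted p, where 13.1% and 14.4% of all genes tested did so. FOXL1, a forkhead factor, covered 3.05 to 5.22 CPM in DU145KO+α2 and 0.827 to 2.15 CPM in the negative samples (log2FC 1.72, SE 0.17, adjusted p = 1.3e-07), and ZNF853 covered 4.9 to 7.5 CPM in DU145KO+α2 and 0.207 to 1.72 CPM in the negative samples (log2FC 3.02, SE 0.17, adjusted p = 6.18e-11).

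IGF2BP1 (chromosome 17, 48996558 to 49056145), an mRNA binding protein, was counted at 8.32, 11.3, 11.3 and 10.7 CPM in DU145KO+α2, at 5.36, 6.05, 5.04 and 4.68 CPM in DU145KO and at 2.66, 2.01, 1.84 and 0.964 CPM in DU145KO+vector. Its 3 lines were fully separate, with DU145KO+vector lowest (log2FC 1.72, SE 0.14, adjusted p = 3.06e-08). KIF26B, a kinesin family protein, covered 5.47 to 8.02 CPM in DU145KO+α2 and 1.6 to 2.81 CPM in the negative samples (log2FC 1.52, SE 0.15, adjusted p = 1.09e-07). UBE2C, which works with the anaphase promoting complex in mitosis, was the only one of 43 proliferation genes that was DE (log2FC 1.04, SE 0.13, adjusted p = 0.000449). In the list, 1 gene rose and 1 fell by the adjusted p, against 13.1% and 14.4% of all genes tested. The list's median log2 fold change was −0.31 for DU145KO+α2 against DU145KO+vector and 0.03 against DU145KO. For DU145KO+vector against DU145KO it was 0.33, so the mean of the negative lines joins levels that differed. The fold change of UBE2C dropped under 2 in 3 of the fits that left out 1 sample.

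The remaining genes named by the rule for large changes were AMPH, DQX1 and STC1 among the higher ones, and FANCF, SAMD11 and PLA2G12B among the lower ones. STC1 (chromosome 8, 23841929 to 23854806), a secreted glycoprotein induced by low oxygen, was counted at 12.3, 11.3, 12.7 and 20.2 CPM in DU145KO+α2, at 8.07, 7.82, 7.19 and 5.74 CPM in DU145KO and at 4.1, 2.44, 1.21 and 1.03 CPM in DU145KO+vector. All 3 lines were separate, with DU145KO+vector lowest (log2FC 1.81, SE 0.30, adjusted p = 0.00432). Against DU145KO alone its log2 fold change was 0.96 with an adjusted p of 0.0867, which did not pass. AMPH covered 7.15 to 10.4 CPM in DU145KO+α2 and 1.44 to 5.36 CPM in the negative samples (log2FC 1.71) and DQX1 covered 3.42 to 5.79 CPM in DU145KO+α2 and 0.934 to 1.66 CPM in the negative samples (log2FC 1.77). FANCF, of the Fanconi anaemia core complex, covered 0.945 to 2.04 CPM in DU145KO+α2 and 2.66 to 11.2 CPM in the negative samples (log2FC −1.81). SAMD11 and PLA2G12B had log2FC values of −1.79 and −1.71.

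The most abundant genes of the set had smaller folds. AKAP12 (chromosome 6, 151239967 to 151358559), a scaffold for protein kinases A and C, was counted at 452, 455, 476 and 499 CPM in DU145KO+α2, at 277, 242, 169 and 267 CPM in DU145KO and at 215, 199, 171 and 229.9 CPM in DU145KO+vector. The negative lines overlapped and lay well below DU145KO+α2 (log2FC 1.11, SE 0.08, adjusted p = 2.88e-06). ALDH1A3 (chromosome 15, 100879831 to 100916626), which makes retinoic acid, was counted at 183, 269.9, 154 and 135 CPM in DU145KO+α2, at 350.4, 325, 470.4 and 443 CPM in DU145KO and at 313, 526, 465 and 345 CPM in DU145KO+vector. The DU145KO+α2 samples were lower (log2FC −1.14, SE 0.23, adjusted p = 0.0118), and without replicate 3 of DU145KO+α2 the log2 fold change was −0.99 with an adjusted p of 0.0502, so that the call was lost.

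GPX3 (chromosome 5, 151020591 to 151028988), the extracellular glutathione peroxidase, was counted at 67.4, 38.7, 39.9 and 47 CPM in DU145KO+α2, at 178, 80.3, 161 and 132 CPM in DU145KO and at 194, 183, 137 and 105 CPM in DU145KO+vector. Its lowest negative sample, replicate 2 of DU145KO, was still above the highest DU145KO+α2 sample (log2FC −1.61, SE 0.25, adjusted p = 0.00374). ERAP2 (chromosome 5, 96875984 to 96919716), which trims peptides for MHC class I, was counted at 43.7, 34.3, 29.7 and 36.4 CPM in DU145KO+α2, at 123, 95.7, 79.1 and 81.4 CPM in DU145KO and at 72.8, 62.9, 65 and 62.4 CPM in DU145KO+vector. DU145KO+vector lay between DU145KO+α2 and DU145KO (log2FC −1.13, SE 0.07, adjusted p = 2.44e-10). NDRG1, a gene induced by stress and low oxygen, covered 186 to 281 CPM in DU145KO+α2 and 65.4 to 156 CPM in the negative samples (log2FC 1.10, SE 0.15, adjusted p = 0.00213). KYNU, an enzyme of tryptophan breakdown, covered 121 to 156 CPM in DU145KO+α2 and 55.6 to 92.1 CPM in the negative samples (log2FC 1.07, SE 0.10, adjusted p = 3.52e-05), and FBXO32, a ubiquitin ligase subunit, covered 22.8 to 36.6 CPM in DU145KO+α2 and 54.5 to 89 CPM in the negative samples (log2FC −1.08, SE 0.10, adjusted p = 4.89e-06).

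DU145KO+vector and DU145KO also differed from each other, and the contrast takes their mean. Of the 83 higher genes, 82 were DE against DU145KO+vector alone and 58 against DU145KO alone, where 1.68% and 0.618% of all genes tested were. Of the 111 lower genes 93 and 103 were, against 1% and 1.94% of all genes. Both single comparisons, which call 2.68% and 2.56% of all genes and share the DU145KO+α2 samples, called 142 of the 194 genes (1.19% of all genes tested were called in both, in the same direction). By the adjusted p at any fold, 186 of the 194 passed against each negative line, where 13.2% of all genes did. The other 8 did not pass against 1 of the lines, 5 of them against DU145KO and 3 against DU145KO+vector. The 194 genes were picked for lying outside both negative lines in these same samples. Their counts against each line therefore describe the selection and test nothing. Among the 194, 51 (26.3%) differed between the negative lines by the adjusted p, where 13.4% of all genes tested did, and 22 (11.3%) were DE between them, where 1.48% were. All 22 were lower in DU145KO+vector (1.41% of all genes tested were, and 0.0747% were higher), 10 of them among the genes higher in DU145KO+α2 and 12 among the lower ones. The higher 10 were CDH5, SCARA5, ZNF853, IGFBP2, IRX3, CEMIP, JAM3, STC1, IGF2BP1 and KIT, and in these DU145KO lay between the transfected lines. The lower 12 include BMP4, SAMD9, FANCF, ST14, MUC16 and SDC2, and in these DU145KO+vector lay between DU145KO+α2 and DU145KO. Both orders follow from the way these genes were picked. By the adjusted p alone, 23 of the higher genes (27.7%) and 21 of the lower genes (18.9%) were lower in DU145KO+vector than in DU145KO, against 7.85% of all genes, and 0 and 7 were higher, against 5.59%.

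Of the 83 higher genes, 73 (88.0%) had a negative log2 fold change for DU145KO+vector against DU145KO, with a median of −0.41. Of the 111 lower genes 73 (65.8%) did, with a median of −0.24, and of all genes tested 50.2%. The choice of genes and these values share the negative samples, so they are given as a description. For 143 of the 194 genes the adjusted p between the negative lines was 0.05 or more, which does not show that the lines were alike.

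**Figure D4:**
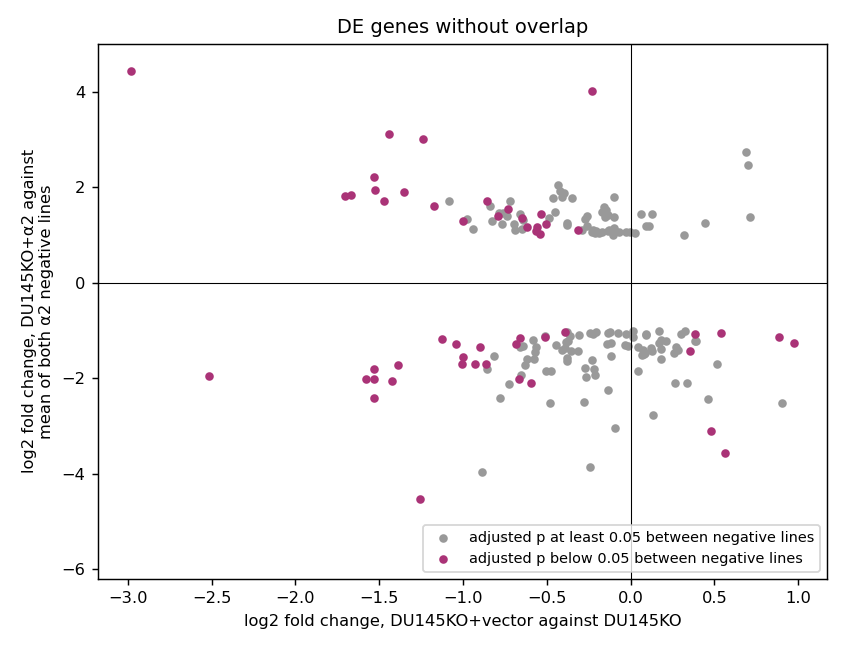
Each point is 1 of the 194 DE genes without overlap, with the log2 fold change of DU145KO+vector against DU145KO on the x axis and that of DU145KO+α2 against the mean of both on the y axis. Purple points, 51 genes, have an adjusted p below 0.05 between the negative lines, and most of them lie left of 0, with CDH5 at the upper left (−2.98).

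The genes without overlap were spread unevenly over the chromosomes. On chromosome 9, 102 of 624 genes tested (16.3%) lay below all negative samples, against 3.75% of all genes, and the median log2 fold change was −0.23. On chromosome 8, 66 of 501 genes (13.2%) lay above them, against 3.4%, with a median of 0.08. On chromosome 21, 13 of 133 genes (9.77%) lay below. Without chromosomes 8 and 9, 3.15% of the genes lay above and 3.25% below. These 2 chromosomes held 9 of the 83 higher and 9 of the 111 lower DE genes without overlap. They held 1125 of the 14652 genes tested that had a position. The DE genes without overlap there include SCARA5, STC1, NDRG1, SDC2 and FBXO32 on chromosome 8 and SYK and SVEP1 on chromosome 9. MX1 lies on chromosome 21. The part of the chromosomes in the changes of these genes was not tested.

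**Figure D5:**
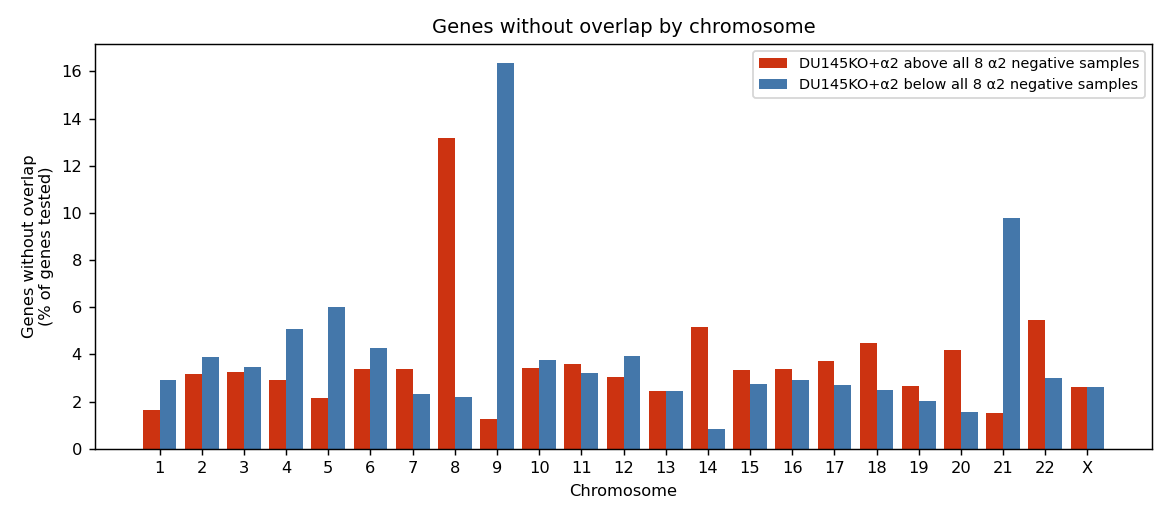
Bars give, for each chromosome, the percentage of genes tested that lay above (red) or below (blue) all 8 α2 negative samples in every DU145KO+α2 sample. The tallest bars are those of lower genes on chromosome 9 (16.3%), of higher genes on chromosome 8 (13.2%) and of lower genes on chromosome 21 (9.77%).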

How the data were processed

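Spheroids of the 3 lines, each in 4 biological replicates, had been sequenced by the authors as stranded mRNA libraries with single-end reads run in 2 lanes. Which sample ran in which lane was not analysed here. The reads were base called with bcl2fastq 1.8.4, aligned to hg38 with TopHat2 2.1.0 and counted on known genes with Subread 1.5.0, using uniquely aligned reads. The authors deposited these counts without normalization, and all tests used them. The authors also deposited RPKM values normalized by TMM, used here for levels between integrin genes and as an alternative scale. Lines and replicate numbers come from the sample labels.

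The tools were edgeR 4.0.16, DESeq2 1.42.0 and limma 3.58.1 under R 4.3.3. Genes kept by filterByExpr with a minimum count of 10 entered 1 model of the 12 samples with the line and the replicate number as a block, and the contrast was DU145KO+α2 minus the mean of DU145KO and DU145KO+vector. The two-sided quasi-likelihood test was robust, with Benjamini-Hochberg adjustment over the 14732 genes tested. "Rose" and "fell" refer to an adjusted p below 0.05. The block was part of the rule of this report. Same-numbered samples of different lines moved together around their line means in 12 of 12 pairs (correlation across genes 0.148 to 0.603, mean 0.423). The mean for different numbers was −0.14, and values taken around line means make it negative when same-numbered samples correlate. No pair of replicates of a line agreed within the counting noise. Without molecular identifiers in the reads, the floors describe counting error and nothing else.

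The genes described, the gene lists and the tests were chosen with earlier results of these data known. Genes named are ITGA2, list members that were DE without overlap, the 15 largest changes in each direction and the 5 most abundant genes in each direction among DE genes without overlap whose average log2 CPM reached 1, genes nearest the edge, and the genes selected by the study; some genes that this rule or a list holds are not reported here by name. On simulated counts for this contrast, all 200 changed genes were recovered (100%) with 0 false calls among 14498 unchanged genes of 14698 tested. The planted changes were all larger than the fold threshold of 2 and lay in genes with mean counts above the filter's minimum of 10. Every gene had the same simulated variability, and the negative lines were simulated alike. The simulation therefore does not cover changes near the threshold, genes with few counts or negative lines that differ. Alternatives were DESeq2's size factors, library size alone, the DESeq2 Wald test, voom with limma, other filters and thresholds, no block, the RPKM scale, and each sample left out. The counts of interferon stimulated and of low oxygen genes were added after seeing the data. Promoter sequences and positions are those of RefSeq in GRCh38.p14.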

Additional observations from a re-analysis of the deposited data

Results flagged for a closer look

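Dixon's test set 1 sample apart in 19 of 187 groups of 4 replicates of the genes named, where chance gives about 1 in 20, or 9.35 groups if they are independent. The groups are not independent, because samples with the same number deviated together. Each value is the gap to the nearest replicate divided by the range of the line. Replicate 1 of DU145KO+α2 was the high sample for the interferon stimulated genes IFIT3 (0.898), MX1 (0.883) and OASL (0.887), for BST1 (0.942) and for SDC2, where it alone had counts (1). Replicate 1 of DU145KO+vector was the high sample for IFIT1 (0.859), IFI27 (0.938), SCARA5 (0.847) and AMPH (0.878), and replicate 1 of DU145KO for UBA7 (0.920). Replicate 4 of DU145KO+vector was low for MMP1 (0.860) and TJP3 (0.935) and high for UBE2C (0.874) and PLXNA2 (0.916). Replicate 4 of DU145KO+α2 was high for CHD5 (0.908), STC1 (0.842) and LGI1 (0.859) and low for FBXO32 (0.867). Replicate 3 of DU145KO+α2 was low for PLA2G12B (0.953).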

How the results depend on the processing

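The choice of filter and of threshold moved the counts most. With at least 10 counts required in every sample, 143 genes were DE (63 higher, 80 lower) and 110 of them had no overlap (48 higher, 62 lower), because fewer genes were tested. With an adjusted p below 0.05 at any fold change, 4045 genes were called (1929 higher, 2116 lower), 1032 of them without overlap (487 higher, 545 lower), and 23 in place of 14 interferon stimulated genes. Without the replicate block, 195 genes were DE without overlap, 193 of them shared with the 194, and 14 in place of 22 of them were also DE between the negative lines. The log2 fold change of ITGA2 was 3.997 without the block. Leaving out each sample in turn gave 304 to 364 DE genes (124 to 170 higher, 180 to 211 lower), 201 to 245 without overlap (85 to 112 higher, 108 to 142 lower), 1117 to 1554 genes without overlap at any fold, 18 to 29 genes that also differed between the negative lines, 13 to 17 interferon stimulated genes, and a log2 fold change of ITGA2 between 3.95 and 4.07. The number without overlap rises when a sample of any line is left out because the condition then has to hold for fewer samples. DESeq2, voom, other size factors and no filter kept 188 to 194 of the 194 genes. On the deposited RPKM scale 1039 genes had no overlap. Under that stricter filter, which asks for 10 counts per library, 17 named genes were not tested and so have no call, and 11 in place of 14 interferon stimulated genes were DE without overlap. Where the genes named were tested, none reversed, and those that lost a call did so in fits that left out 1 sample. These were 11 genes: TJP3, UBE2C, IFI27, IGFBP6, MET, PLXNA2, AKAP12, NDRG1, KYNU, ALDH1A3 and FBXO32. Genes near 3 counts per sample, such as SDC2 and CMPK2, give only a bound of their fold change.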

Other observations

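A list of genes induced by low oxygen, drawn up after STC1 and NDRG1 had been seen among the higher genes, held 47 genes that were tested. By the adjusted p, 29 of them rose and 1 fell (13.1% and 14.4% of all genes tested did so), and 15 lay above all negative samples (31.9%, against 3.4% of all genes tested). The median log2 fold change was 0.29, and for DU145KO+vector against DU145KO it was −0.07. STC1, NDRG1, LOX, PFKFB4 and MIR210HG were DE without overlap. LOX, an enzyme that crosslinks collagen, was counted at 13.1, 9.74, 9.63 and 14.5 CPM in DU145KO+α2, at 8.2, 8.0, 3.44 and 3.98 CPM in DU145KO and at 5.82, 5.67, 5.47 and 3.99 CPM in DU145KO+vector. It was highest in DU145KO+α2 (log2FC 1.09, SE 0.21, adjusted p = 0.00451, edgeR's quasi-likelihood test). PFKFB4, a regulator of glycolysis, covered 12.7 to 27.8 CPM in DU145KO+α2 and 6.21 to 10.6 CPM in the negative samples (log2FC 1.07, SE 0.11, adjusted p = 1.32e-06), and MIR210HG, the host transcript of a microRNA induced by low oxygen, covered 10.04 to 17.4 CPM in DU145KO+α2 and 4.61 to 7.74 CPM in the negative samples (log2FC 1.01, SE 0.11, adjusted p = 1.28e-06). Among the glycolytic genes of the list, PGK1 and GAPDH lay above all negative samples with log2FC values of 0.64 and 0.46. Without replicate 4 of DU145KO+α2, only 1 of the list's genes was DE without overlap, and without replicate 4 of DU145KO 3 were. The letters ACGTG were found in 23% of the promoters of all genes tested and in 2 of the 3 promoters on hand for these 5 genes.

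Of 11 MHC class II genes tested, 6 fell and 1 rose by the adjusted p (14.4% and 13.1% of all genes tested did so), 3 were DE and lower (1.31% of all genes), and none was without overlap. Against DU145KO their median log2 fold change was −1.43 and against DU145KO+vector it was 0.03, while 10 of the 11 were lower in DU145KO+vector than in DU145KO by the adjusted p.

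Among the 55 genes without overlap that had too few counts for a test, 27 were higher and 28 lower in DU145KO+α2. LGI1 was counted 3, 5, 4 and 10 times in DU145KO+α2 and had no count in the negative samples. RSAD2, another interferon stimulated gene, was counted 4, 0, 3 and 1 times in DU145KO+α2, 13, 6, 8 and 11 times in DU145KO and 10, 5, 5 and 5 times in DU145KO+vector. At these counts the size of the difference could not be given.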
